A study of Rattus norvegicus with 6 samples.

Results

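The RGS proteins (regulators of G protein signalling) are described here through 14 array probe sets, out of 31042, which stand for 10 rat genes: Rgs1, Rgs2, Rgs3, Rgs4, Rgs5, Rgs7, Rgs10, Rgs14, Rgs16 and Rgs19. A probe set was taken where the array annotation gives one of these symbols and no other. Rgs3 has 3 probe sets, Rgs2 and Rgs4 have 2 each, and the remaining genes have 1. The samples were organ cultures of rat pituitary tissue, 3 with GnRH (gonadotropin-releasing hormone) at 10 nM and 3 labelled control, with 1 array per sample and what the controls received not stated. Strain, sex, age and length of treatment are not stated in the labels. Nor do they state whether the 6 samples are 6 separate cultures, so the p-values may reflect technical spread alone.

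A receptor coupled to G proteins works by loading the alpha subunit of its G protein with GTP, and the signal ends when the alpha subunit cleaves that GTP. RGS proteins bind the active alpha subunit and speed this step, so they shorten the signal. The GnRH receptor of gonadotropes, the source of LH and FSH, signals mainly through Gq, and in mammals it lacks the C-terminal tail through which many receptors are silenced. The family falls into subfamilies by sequence. Among the genes described, R4 holds the small proteins Rgs1, Rgs2, Rgs3, Rgs4, Rgs5 and Rgs16, R7 holds Rgs7, R12 holds Rgs10 and Rgs14, and RZ holds Rgs19.

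None of the 14 RGS probe sets passed the test for a difference between GnRH and control cultures, and Rgs4 came nearest. Both of its probe sets were higher in all 3 GnRH cultures than in any control, by 1.47-fold and 1.34-fold. Rgs16 lay the other way, 0.850-fold of the control level, again with no overlap. Rgs7 and Rgs10 had positive differences that were set by 2 of the 3 controls, and the Gq-directed Rgs2 had a difference near 0. By limma with Benjamini-Hochberg adjustment over all probe sets, 0 of 14 had an adjusted p under 0.05, against 0.464% of all probe sets. At an unadjusted p under 0.05, 4 were higher (both of Rgs4, Rgs7 and Rgs10), against 6.6% of all probe sets, and 1 was lower (Rgs16), against 5.66%. The groups did not overlap in 3 higher probe sets (both of Rgs4 and 1 of Rgs3), against 7.06% of all, and in 1 lower one (Rgs16), against 9.62%. The median log2 fold change was 0.07 over the 14 and -0.02 over all probe sets.

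**Figure D1:**
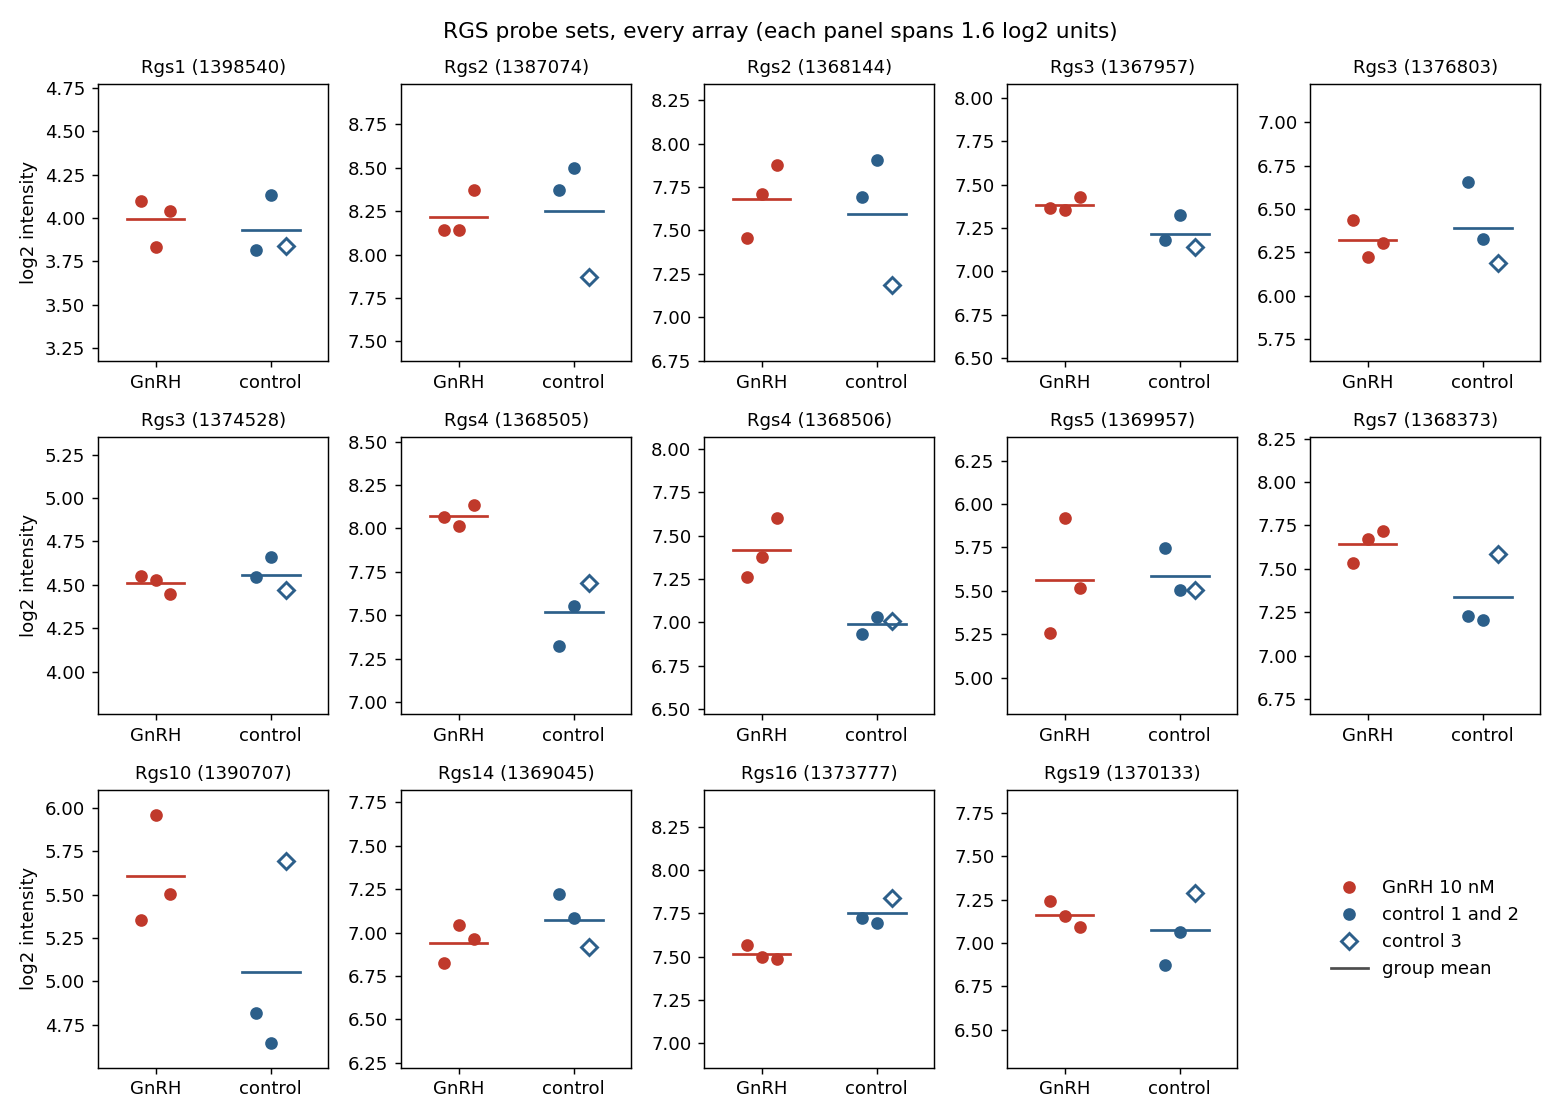
Log2 intensity of each of the 14 RGS probe sets (panels) in every array, with GnRH arrays left and control arrays right; lines are group means of 3 arrays, and the open diamond is control 3. The GnRH points lie above all controls for both Rgs4 probe sets, at 8.01 to 8.14 and 7.26 to 7.60, and below all controls for Rgs16, at 7.48 to 7.57.

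The arrays themselves set a limit on what follows, because control 3 stood apart from the other controls. Across all probe sets, which are not independent replicates, its log2 values had a Pearson correlation of 0.983 and 0.986 with controls 1 and 2, which had 0.994 with each other, and of 0.988 to 0.991 with the GnRH arrays. Xist, the RNA that silences an X chromosome in female cells, averaged 7.14 to 7.16 over its 4 probe sets in GnRH arrays, against 4.12, 3.98 and 7.34 in controls 1, 2 and 3. Eif2s3y, a Y-linked gene, had 2.42, 2.29 and 2.06 in GnRH arrays, against 6.48, 6.56 and 2.76 in controls 1, 2 and 3. Uty, also Y-linked, ran opposite to Eif2s3y on 1 probe set, at 7.41 to 7.52 in GnRH arrays against 6.27, 6.31 and 7.44. Its other probe set did not divide the arrays (5.24 to 5.54 against 5.53, 5.51 and 5.40). Control 3 thus lies with the GnRH arrays in Xist and Eif2s3y and in its overall correlation. Whether its label is right could not be settled from the sources used here, and every difference between GnRH and control below carries that doubt. Controls 1 and 2 differ from the GnRH arrays in sex-linked transcripts as well as in GnRH. Genes known for the tissue and the treatment were read first. Gh1 and Prl, the growth hormone and prolactin genes, lay at 13.83 to 14.25 in every array. The GnRH receptor gene Gnrhr rose by 1.04 and 1.12 on its 2 probe sets (limma adjusted p = 0.0129 and 0.0215). Each call was lost without GnRH 2 (0.90 and 0.93, limma adjusted p = 0.0612 and 0.0658) or without control 2 (0.97 and 1.05, 0.0649 and 0.0940). The second was also lost without control 1 (1.08, 0.0789), without GnRH 3 (1.18, 0.0545), with an offset of 16 (1.07, 0.0637) or with the Xist covariate described below (0.91, 0.0542). Nr5a1, a gonadotrope transcription factor gene, rose by 0.54 (limma adjusted p = 0.0471), a call lost on leaving out any 1 array other than control 3 (limma adjusted p up to 0.182). The Nr5a1 call was also lost with each other normalization, an offset of 16 or the Xist covariate (limma adjusted p from 0.0532 to 0.0981). Averaged over its probe sets, Nr5a1 did not pass (0.46, limma adjusted p = 0.145). The gonadotropin subunit genes Lhb (0.34), Cga (0.18) and Fshb (-0.30 and -0.36) did not pass. Of the immediate early genes, which respond within minutes in many cells, 0 of 25 probe sets passed, with Klf4 (0.55, limma adjusted p = 0.0534) and Dusp1 (0.43, 0.0723) nearest. At an unadjusted limma p under 0.05, 9 of the 25 were higher and 1 lower, against 6.6% and 5.66% of all probe sets. The groups did not overlap in 8 higher and 1 lower of the 25, against 7.06% and 9.62%. Of the hormone list, Pou1f1 (0.58, limma adjusted p = 0.132) and Prl (0.24, 0.387) had the smallest p-values.

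Rgs4, which acts on Gi and Gq and is best known from the brain, gave the clearest values. On the probe set 1368505_at it had log2 intensities of 8.07, 8.01 and 8.14 in GnRH cultures, against 7.32, 7.55 and 7.68 in controls. The lowest GnRH value stood above the highest control, and the GnRH values were the more tightly grouped (8.07 ± 0.06 against 7.52 ± 0.18, SD, n = 3 each). The log2 fold change was 0.55 ± 0.11 (SE), with a 95% interval of 0.32 to 0.79 (limma adjusted p = 0.0576). On 1368506_at, Rgs4 had 7.26, 7.38 and 7.60 in GnRH cultures, against 6.93, 7.03 and 7.01 in controls. These groups did not overlap either, and the difference was 0.42 ± 0.10 (SE), with an interval of 0.20 to 0.65 (limma adjusted p = 0.130). On the first probe set control 3 was the control nearest the GnRH arrays, 0.25 above the mean of controls 1 and 2. On the second it sat with the other controls (0.02 above that mean). The GnRH mean exceeded control 3 alone by 0.39 and 0.41, and controls 1 and 2 by 0.63 and 0.43. With the array's mean Xist value added to the fit, where control 3 is the only control at the GnRH level, the differences were 0.41 and 0.41 (limma adjusted p = 0.174 and 0.224). Rgs4 kept a positive difference on both probe sets under all 17 alternatives, from 0.41 to 0.63 and from 0.33 to 0.50. Since the groups did not overlap, leaving out 1 array or weighting the arrays could not turn the sign. The filter on dim probe sets, the other variance models and the replicate block leave the difference unchanged. On the first probe set Rgs4 passed the threshold in 4 of the 17 (robust variances, array weights, the replicate block and without control 3). On the second it passed in 2 (array weights and without control 3).

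Rgs5 lies next to Rgs4 on chromosome 13 in the RefSeq gene table (assembly GRCr8), with 0 protein-coding genes between them, and its groups overlapped. This R4 member is known as a marker of pericytes, the contractile cells around capillaries. It had 5.26, 5.92 and 5.52 in GnRH cultures, against 5.74, 5.50 and 5.51 in controls. The GnRH values spread over both sides of the controls. The log2 fold change was -0.02 ± 0.15 (SE), with an interval of -0.36 to 0.32 (limma adjusted p = 0.969), so changes within that interval are not excluded. The GnRH mean minus control 3 was 0.06, and minus controls 1 and 2 it was -0.06. The within-array log2 ratio of Rgs4 to Rgs5 was 2.81, 2.10 and 2.62 in GnRH cultures, against 1.58, 2.05 and 2.18 in controls, which overlap. The ratio differed by 0.57 between the groups (exact permutation p = 0.2 over all 20 splits, adjusted p = 0.2 over 3 ratios). The other ratios were Rgs4 to Rgs2 (0.58, exact permutation p = 0.2) and Rgs4 to Rgs16 (0.79, exact permutation p = 0.1). The outcome for Rgs4 to Rgs16 was fixed beforehand. In these same arrays Rgs4 lay above all controls and Rgs16 below all controls, so their ratio had to separate. Since 3 arrays against 3 cannot go below an exact permutation p of 0.1, this test cannot decide whether the neighbours differ in their response. Pericyte and mural cell markers had a summed linear intensity of 1119 to 1294 in GnRH cultures and 1107 to 1416 in controls over 9 of 9 listed genes, with 0 of 14 probe sets past the threshold. The smallest p-values among them were those of Abcc9 (-0.25, limma adjusted p = 0.374) and Kcnj8 (-0.22, 0.424). Of the 14, 12 had negative differences and 2 positive, while 17806 of all 31042 probe sets were negative. In 1 of the 14, Cspg4 (-0.09), GnRH lay lower without overlap, against 9.62% of all probe sets. Tagln, the brightest of the 9, weighs most in the sum and overlapped (7.78 to 8.86 in GnRH cultures, 7.69 to 8.94 in controls). In such bulk tissue, fewer cells of a type and less RNA per cell cannot be told apart.

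The 250 bases before the start of Rgs4 are shown because it came nearest to the threshold, those of Rgs5 because it is the neighbour whose groups overlapped, and those of Rgs2 because it is the member most often described as inducible. They are RefSeq sequences of GRCr8, written 5′ to 3′ along each gene: chr13:84475885-84476134 (minus strand) for Rgs4, chr13:84380827-84381076 (plus strand) for Rgs5 and chr13:58352667-58352916 (minus strand) for Rgs2. Capitals mark matches to the core of a cAMP response element (TGACG, or CGTCA when it lies on the other strand) or a TATA box (TATAAA).
Rgs4: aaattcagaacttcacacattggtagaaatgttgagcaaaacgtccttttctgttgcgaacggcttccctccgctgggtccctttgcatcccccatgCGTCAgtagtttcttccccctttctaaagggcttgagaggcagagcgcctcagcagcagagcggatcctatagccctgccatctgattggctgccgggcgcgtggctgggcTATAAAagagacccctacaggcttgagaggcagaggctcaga
Rgs5: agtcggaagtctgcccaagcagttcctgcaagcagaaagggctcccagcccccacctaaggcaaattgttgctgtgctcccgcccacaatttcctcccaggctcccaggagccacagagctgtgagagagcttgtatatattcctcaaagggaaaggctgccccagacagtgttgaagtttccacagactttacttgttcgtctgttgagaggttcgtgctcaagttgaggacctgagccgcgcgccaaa
Rgs2: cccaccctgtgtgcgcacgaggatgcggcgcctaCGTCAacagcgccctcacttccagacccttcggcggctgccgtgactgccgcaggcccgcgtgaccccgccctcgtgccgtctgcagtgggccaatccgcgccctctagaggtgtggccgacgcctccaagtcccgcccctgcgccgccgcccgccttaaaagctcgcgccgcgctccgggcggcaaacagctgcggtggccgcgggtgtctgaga
The core CGTCA begins 153 bases before the start of Rgs4 and 216 before that of Rgs2, and TATAAA begins 42 bases before the start of Rgs4. Rgs5 held 0 matches to any motif searched. The 5 motifs were searched on both strands in the 250 bases before each of 33469 starts, and no matches overlapped in the 10 RGS windows. The core TGACG was in 4 of 10 RGS windows (Rgs1, Rgs2, Rgs3 and Rgs4), against 18.2% of all windows. TATAAA was in 3 (Rgs1, Rgs3 and Rgs4), against 12.9%. The Egr site GCGNGGGCG was in 1 (Rgs7), against 4.29%, while the AP-1 site TGANTCA (6.34% of all) and the NR5A site AAGGTCA (3.99%) were in 0. For Rgs3, Rgs7, Rgs10, Rgs16 and Rgs19 the start used by RefSeq's promoter table lies inside the annotated gene. A match says only that these letters stand there. Rgs2 and Rgs4 share the core and differed in how their values lay, since the Rgs2 groups overlapped on both probe sets.

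Rgs2 acts preferentially on Gq and is an early-response gene in many cells. On 1387074_at it had 8.14, 8.14 and 8.37 in GnRH cultures, against 8.37, 8.50 and 7.87 in controls. On 1368144_at it had 7.46, 7.71 and 7.88 in GnRH cultures, against 7.69, 7.90 and 7.19 in controls. Control 3 was the lowest of the 6 arrays on both, by 0.57 and 0.61 below the mean of controls 1 and 2 (differences of -0.57 and -0.61), and the groups overlapped. The log2 fold changes were -0.03 ± 0.15 and 0.09 ± 0.17 (SE), with intervals of -0.37 to 0.31 and -0.30 to 0.47 (limma adjusted p = 0.954 and 0.871). Their sign depended on the control used: the GnRH mean minus controls 1 and 2 was -0.22 and -0.12, and minus control 3 it was 0.35 and 0.49. The 2 probe sets ran alike over the 6 arrays, with a Pearson correlation of 0.918 as a description. Immediate early genes were also low in control 3, with a mean log2 value of 7.88 there over 17 of 18 listed genes, against 8.28 to 8.37 in GnRH cultures and 8.22 and 8.26 in controls 1 and 2. Their part in the Rgs2 values was not tested.

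**Figure D2:**
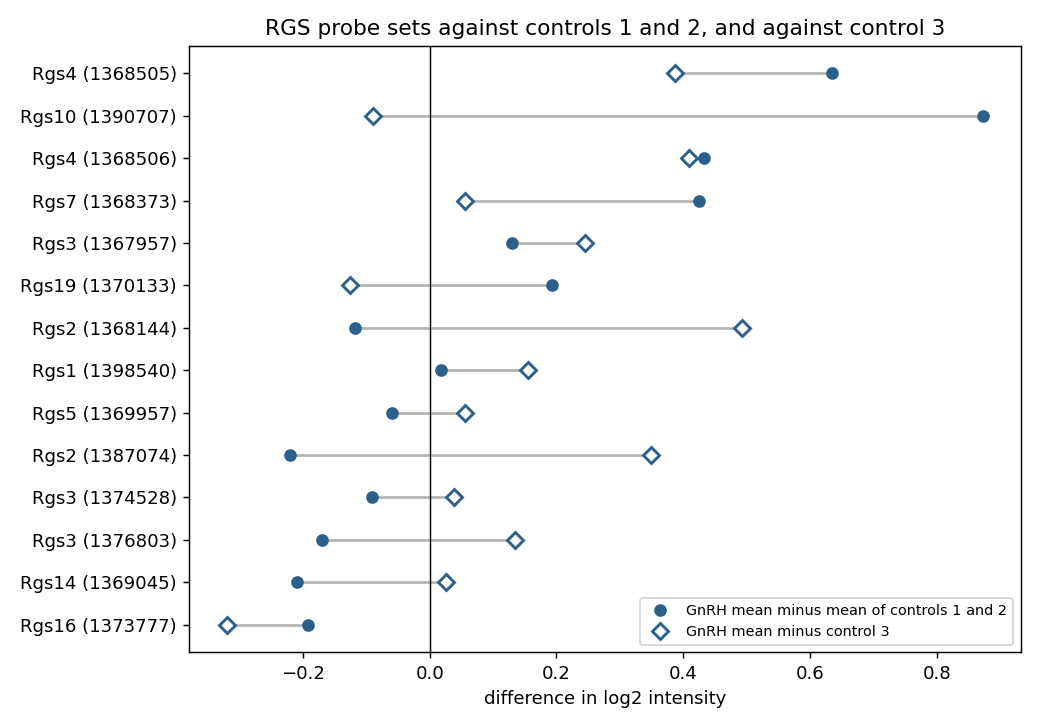
Difference in log2 intensity between the mean of the 3 GnRH arrays and the mean of controls 1 and 2 (filled points) or control 3 alone (open diamonds), for each RGS probe set. The pair of symbols lies on the same side of 0 for both Rgs4 probe sets, Rgs16, Rgs7, Rgs1 and 1367957_at of Rgs3, and on opposite sides for the others, Rgs2 and Rgs10 included (0.87 against controls 1 and 2 and -0.09 against control 3).

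Rgs3 is known to dampen GnRH receptor signalling when it is overexpressed in cultured cells, and its 3 probe sets did not run alike. On 1367957_at it had 7.37, 7.36 and 7.43 in GnRH cultures, against 7.18, 7.32 and 7.14 in controls. Those groups did not overlap, and the difference was 0.17 ± 0.09 (SE), with an interval of -0.03 to 0.36 (limma adjusted p = 0.472). The other 2 Rgs3 probe sets had differences of -0.07 and -0.05 (limma adjusted p = 0.854 and 0.858), with overlapping groups at 6.23 to 6.44 against 6.19 to 6.66 and at 4.45 to 4.55 against 4.47 to 4.66. For both, the sign turned with the control: against control 3 alone the differences were 0.14 and 0.04, and against controls 1 and 2 they were -0.17 and -0.09. Correlations between the 3 over the 6 arrays ran from -0.180 to 0.269. The mean of all Rgs3 probe sets differed by 0.02 (limma adjusted p = 0.945).

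Rgs16, an R4 protein that acts on Gi and Gq and is known from the circadian clock of the hypothalamus, was the member with the most negative difference. It had 7.57, 7.50 and 7.48 in GnRH cultures, against 7.72, 7.69 and 7.84 in controls. All GnRH values lay below all controls, and control 3 was the highest array. The difference was -0.23 ± 0.09 (SE), with an interval of -0.42 to -0.04 (limma adjusted p = 0.308). It stayed negative under all 16 alternatives, from -0.31 to -0.19, without passing in any. With no overlap between the groups, leaving out 1 array or weighting the arrays could not turn its sign. Rgs8, the RGS gene next to Rgs16 on chromosome 13, had a difference of -0.05 (limma adjusted p = 0.911).

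Rgs1, known chiefly from lymphocytes, gave dim values. It had 4.10, 3.83 and 4.04 in GnRH cultures, against 3.82, 4.13 and 3.84 in controls, all between the percentiles 8.20 and 12.2 of the probe sets on each array. The groups overlapped and the difference was 0.06 ± 0.11 (SE, limma adjusted p = 0.851). The files hold no detection calls, so it cannot be said whether Rgs1 was measured above background. Rgs1 and 1 of the Rgs3 probe sets fell in the dimmest 25% of probe sets, and the other 12 passed that filter. Leukocyte markers overlapped between the groups, with a summed linear intensity of 1655 to 1976 in GnRH cultures and 1691 to 1903 in controls over 11 of 12 listed genes and 0 of 15 probe sets past the threshold. Of these 15 probe sets, 11 had negative differences and 4 positive, while 17806 of all 31042 were negative. Csf1r (-0.21, limma adjusted p = 0.377) and Cd68 (-0.15, 0.551) had the smallest p-values of the leukocyte markers. Among them Ptprc, the pan-leukocyte gene CD45, lay at 3.78 to 4.20 in GnRH cultures and 3.76 to 4.46 in controls.

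**Figure D3:**
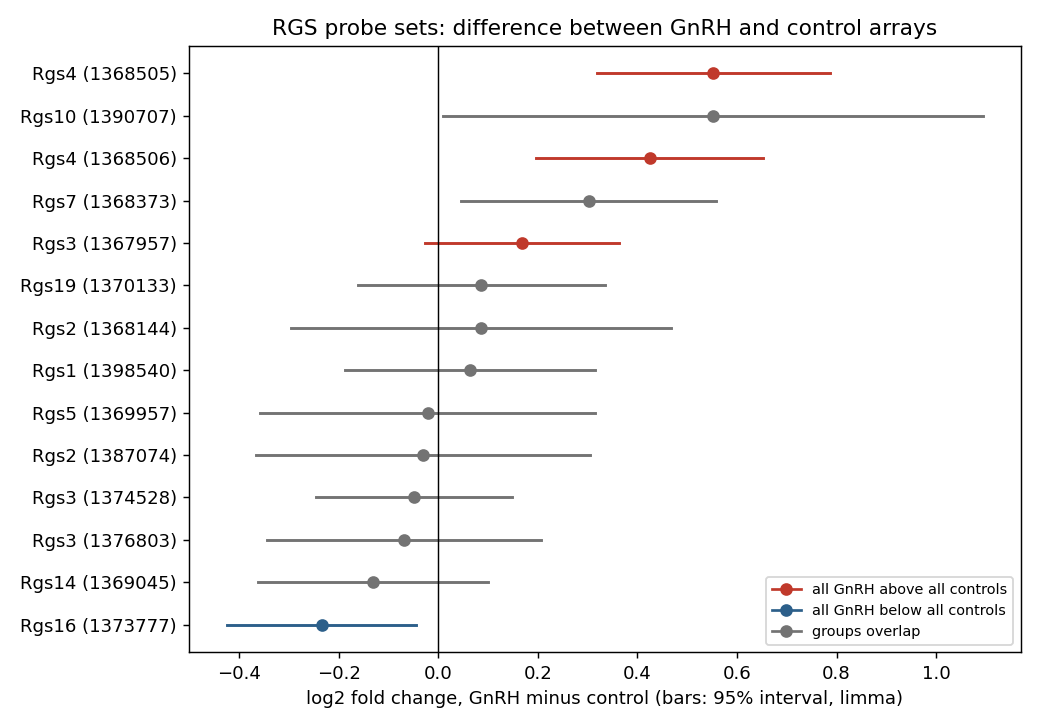
Log2 fold change, GnRH minus control, of each RGS probe set (points) with its 95% interval from limma (bars), ordered by size; colours show whether the groups overlap. The intervals of both Rgs4 probe sets lie above 0 (0.32 to 0.79 and 0.20 to 0.65), as do those of Rgs7 and Rgs10, and that of Rgs16 lies below 0, although none passed adjustment over all probe sets.

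Rgs7, the R7 member, acts on Gi and Go in neurons and endocrine cells as a stable pair with the beta subunit Gnb5. It had 7.53, 7.67 and 7.72 in GnRH cultures, against 7.23, 7.20 and 7.58 in controls. Control 3 lay inside the GnRH range, while controls 1 and 2 lay below it. The difference was 0.30 ± 0.12 (SE), with an interval of 0.05 to 0.56 (limma adjusted p = 0.328), and with the Xist covariate it was 0.08 (limma adjusted p = 0.885). Its partner Gnb5 divided the arrays in the same way, with 7.06, 7.04 and 7.06 in GnRH cultures against 6.76, 6.73 and 7.06 in controls, which gives 0.20 (limma adjusted p = 0.462). Rgs7bp, the protein that anchors this pair to the membrane, had a difference of -0.18 (limma adjusted p = 0.507).

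Rgs10, a small R12 protein known from microglia and other immune cells, had the widest spread of all members (SD 0.51 over the 6 arrays). It had 5.35, 5.96 and 5.50 in GnRH cultures, against 4.82, 4.65 and 5.69 in controls. Control 3 lay between the GnRH values, well above the other controls (a difference of 0.96). The log2 fold change was 0.55 ± 0.24 (SE), with an interval of 0.01 to 1.09 (limma adjusted p = 0.399). Rgs4 had a difference of the same size with an SE of 0.11. With the Xist covariate the difference was -0.04 (limma adjusted p = 0.974). Both this value and the position of control 3 rest on that 1 array, and the part of the Xist division in the Rgs10 values was not tested.

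Rgs14, the other R12 protein, also binds Rap and Ras and is best known from the hippocampus. It had 6.82, 7.04 and 6.96 in GnRH cultures, against 7.22, 7.08 and 6.92 in controls, and a log2 fold change of -0.13 ± 0.10 (SE, limma adjusted p = 0.647). Rgs19, the RZ member, was first found as a partner of the Gi alpha subunits and carries a string of lipid-modified cysteines. It had 7.24, 7.16 and 7.09 in GnRH cultures, against 6.88, 7.06 and 7.29 in controls, and a log2 fold change of 0.09 ± 0.11 (SE, limma adjusted p = 0.789). In both genes the groups overlapped and control 3 was at an end of the controls, lowest for Rgs14 and highest for Rgs19. The GnRH mean minus control 3 was 0.03 for Rgs14 and -0.13 for Rgs19, and minus controls 1 and 2 it was -0.21 and 0.19.

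Without control 3, 4 of the 14 RGS probe sets passed the threshold as higher and 0 as lower, in a fit where 4.95% of all probe sets passed as higher and 2.49% as lower. The 4 were both Rgs4 probe sets at 0.63 and 0.43 (limma adjusted p = 0.00455 and 0.0387), Rgs7 at 0.42 (0.0205) and Rgs10 at 0.87 (0.00915). That fit sets GnRH arrays with high Xist against controls with low Xist, so GnRH and the sex-linked division cannot be told apart in it. Of these 4, the Rgs4 probe sets were also higher against control 3 alone, by 0.39 and 0.41, whereas Rgs7 (0.06) and Rgs10 (-0.09) were near it.

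**Figure D4:**
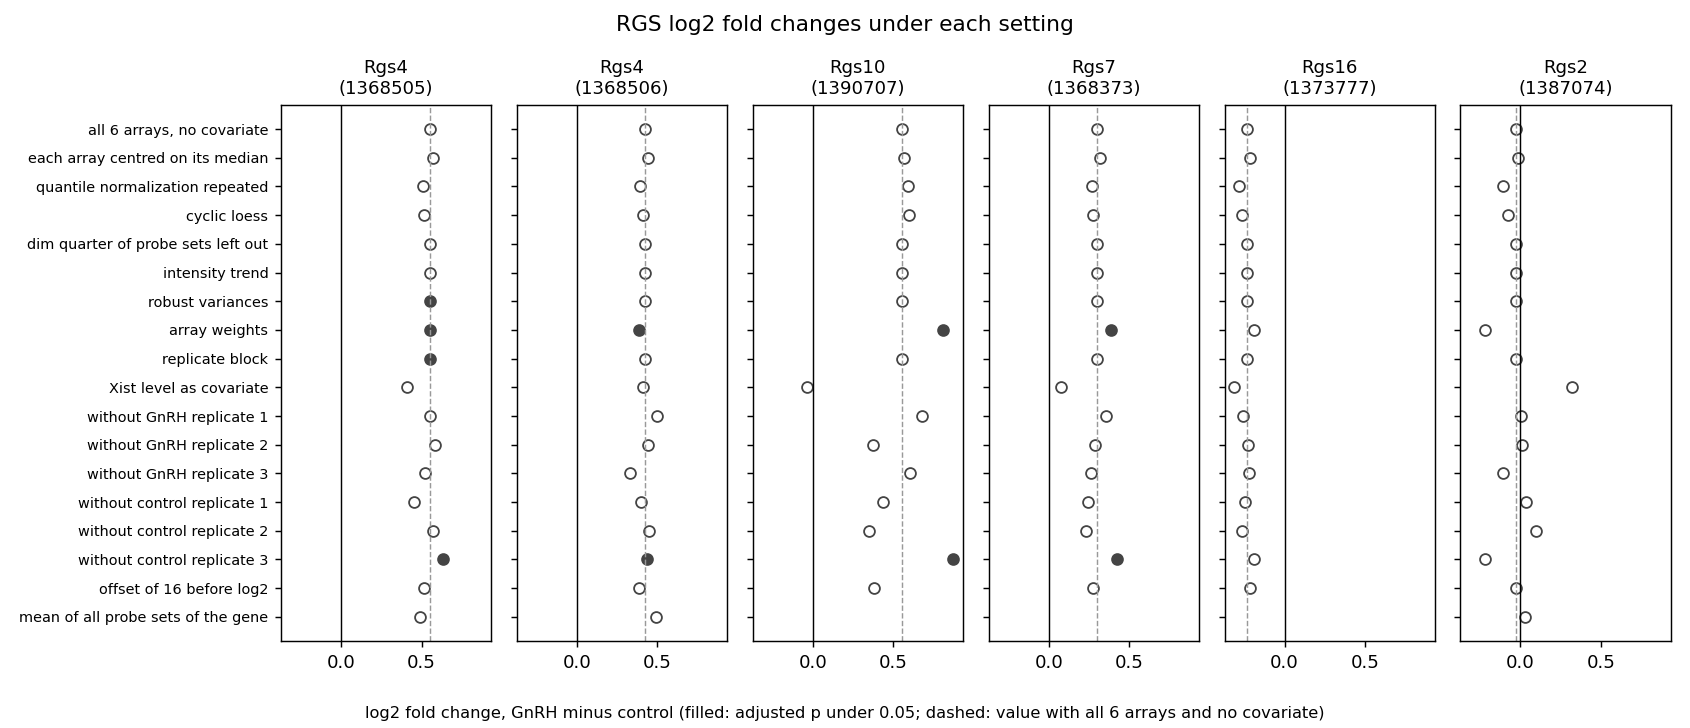
Log2 fold change, GnRH minus control, of 6 RGS probe sets (panels) under each setting (rows); filled points have a limma adjusted p under 0.05 and the dashed line is the value with all 6 arrays and no covariate. Rgs4 stays between 0.33 and 0.63 throughout, Rgs10 runs from -0.04 to 0.87, and Rgs2 falls on both sides of 0.

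In the rest of the family and its partners, no gene passed the test. Of 16 listed genes 11 were measured, by 17 probe sets, and 0 passed the threshold, with a median log2 fold change of -0.06. At an unadjusted p under 0.05, 0 were higher and 1 was lower: Rgs18, a platelet and leukocyte R4 gene, had 4.05, 3.74 and 3.87 in GnRH cultures against 4.12, 4.13 and 4.07 in controls, which gives -0.22 (limma adjusted p = 0.397). The 5 probe sets of Rgs17 ran from -0.06 to 0.12. Among these 17 and the 14 RGS probe sets described above, differences of under 0.2 in size were found in 15 and 9, against 81.3% of all probe sets.

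Among the G protein alpha subunits, Gnaz and Gna12 each had 1 called probe set. Of 13 listed genes 11 were measured by 17 probe sets. Of these 2 were called higher and 0 lower, against 131 and 13 of all 31042 probe sets. Gnaz, a Gi relative that RZ proteins act on, had 6.35, 6.40 and 6.38 in GnRH cultures against 5.92, 5.74 and 5.81 in controls, a rise of 0.56 ± 0.09 (SE, limma adjusted p = 0.0269). Its other probe set had a difference of 0.04 (limma adjusted p = 0.915). Gna12, a subunit of the G12 class, had 7.51, 7.52 and 7.45 in GnRH cultures against 6.91, 7.04 and 6.82 in controls, a rise of 0.57 ± 0.09 (SE, limma adjusted p = 0.0280), and 0.32 on its other probe set (0.387). Averaged over their probe sets, Gnaz (0.30) and Gna12 (0.44) did not pass (limma adjusted p = 0.145 and 0.120). Leaving out 1 array ended the call for Gna12 unless that array was control 3, and for Gnaz unless it was control 1 or control 3 (limma adjusted p up to 0.171 and 0.164). Gnaq and Gna11, the Gq subunits of GnRH receptor signalling, had differences of -0.00 and 0.17 without passing (limma adjusted p = 0.999 and 0.597). Receptor kinases, arrestins and other G protein regulators had 0 of 16 probe sets past the threshold, over 11 of 12 listed genes. Their smallest p-values belonged to the G protein activator Gpsm1 (0.32, limma adjusted p = 0.322) and the arrestin Arrb1 (-0.27, limma adjusted p = 0.395).

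The genes whose 6 values ran most like Rgs4 on 1368505_at were Pde4dip (Pearson r 0.986), Esyt1 (0.985), Eef1a2 (0.980), Klf5 (0.976) and Igdcc4 (0.971), out of 779 named probe sets with a mean log2 value of at least 6 and an SD of at least 0.3. In each of these the GnRH values lay above all controls. Those most like Rgs10 were Smim14 (0.999), Olfml3 (0.996), Ostc (0.991), Clcn3 (0.989) and Ankrd37 (0.988), and in each of these control 3 lay within the range of the GnRH arrays. All these correlations are descriptions over the same 6 arrays. The patterns shared with Rgs4 and Rgs10 come with the choice of genes by correlation and are no separate result.

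Markers of the posterior lobe, neurons and glia are given beside Rgs4 and Rgs7, both known from neural tissue. Their summed linear intensity was 2030 to 2248 in GnRH cultures and 2320 to 2617 in controls, without overlap, over 11 of 11 listed genes. This rested on Gfap: without it the sums overlapped, at 1976 to 2159 in GnRH cultures and 2032 to 2114 in controls, an alternative chosen after seeing the data. The list's mean log2 value overlapped with Gfap too (6.90 to 7.21 in GnRH cultures and 7.21 to 7.33 in controls), 10 of 16 probe sets had positive differences and 0 passed the threshold. Gfap, the glial filament gene, had 7.69, 6.47 and 5.76 in GnRH cultures against 7.92, 8.97 and 8.94 in controls, which gives -1.97 (limma adjusted p = 0.0835). Of the 6 probe sets with negative differences, those of the vasopressin gene Avp and the oxytocin gene Oxt came next in size. Avp differed by -0.57 (limma adjusted p = 0.264), with all GnRH values below all controls, and Oxt by -0.43 (0.347), with overlap. Nefl, a neurofilament gene, averaged 7.26 ± 0.28 in GnRH cultures and 6.81 ± 0.04 in controls (SD, n = 3 each), which gives 0.45 (limma adjusted p = 0.195). Their part in the Rgs4 and Rgs7 values was not tested. Endothelial markers, over 8 of 9 listed genes, summed to 936 to 980 in GnRH cultures and 942 to 972 in controls, with 0 of 10 probe sets past the threshold, and Cldn5 (-0.25, limma adjusted p = 0.435) and Tie1 (0.12, 0.605) had the smallest p-values.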

How the data were processed

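Transcripts were measured on 1-colour arrays from 6 samples of rat pituitary organ culture. The deposited values are intensities on a linear scale, 1 per probe set, made by the authors with RMA, as the submitters' notes say. Software and filters are not stated in what was used here. RMA usually corrects background, equalises the arrays and combines probes into 1 value. The table has 31042 probe sets, 0 missing values, no detection calls and a median of 64.5 to 67.0 per array. The number of arrays limits the precision.

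Values were turned into log2 with no offset and compared, all probe sets together, by lmFit and eBayes of limma 3.58.1 under R 4.3.3 (2-sided, no covariate). Benjamini-Hochberg adjustment ran over all probe sets, with a threshold of 0.05. The fit was tested on simulated data. Alternatives were other normalizations, a filter on dim probe sets, an offset, other variance models, array weights, the replicate block, an Xist covariate, gene means and leaving out each array. Members came from the annotation's symbols; other genes were updated through gene identifiers to GRCr8 names. All members were named; from each other list, the genes past the threshold or otherwise the 2 with the smallest p-values, and any others were named after their values were seen. The members, gene lists, motifs and the ratios were chosen with earlier results of these data known. Deviations from the group mean had correlations of 0.159, -0.0489 and 0.156 between samples with the same replicate number. Other pairs of a GnRH and a control sample ran from -0.232 to 0.180. With 3 arrays per group these values cannot exclude pairing. The numbers were not taken as pairs, since nothing in the labels says that they pair samples. The numbers are those of the titles; the descriptions of all 3 GnRH samples end in 1.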

Additional observations from a re-analysis of the deposited data

How the results depend on the processing

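With all 6 arrays and no covariate, 0 of 14 RGS probe sets passed the threshold. The count higher was 1 with robust variances (0.609% of all probe sets passed), 1 with the replicate number as a block (0.693%), 1 at an adjusted p under 0.10 (1.10%; Rgs4 in each) and 4 with array weights (9.73%). It ran from 0 to 4 when 1 array was left out, with the 4 reached without control 3. The count lower was 0 throughout. In the rest of the family the count higher was 1 with array weights and 0 to 1 with 1 array left out (Gnb5, without control 3). Of 229 member values under alternatives, 27 turned in sign, in none of which the value passed. With the Xist covariate these were Rgs2 (0.32), Rgs3 (0.11 and 0.034), Rgs5 (0.047), Rgs10 (-0.036), Rgs14 (0.010) and Rgs19 (-0.10), beside 2 Xist probe sets themselves (-0.0026 and -0.13). With array weights they were Rgs1 (-0.039) and Rgs2 (-0.16), with quantile normalization Rgs5 (0.012), with cyclic loess Rgs3 (0.0033) and Rgs5 (0.023), and with gene means Rgs2 (0.028) and Rgs3 (0.017). With 1 array left out the values ran from -0.22 to 0.096 and from -0.12 to 0.24 for Rgs2, from -0.17 to 0.065 and from -0.092 to 0.0019 for Rgs3, from -0.20 to 0.13 for Rgs5 and from -0.014 to 0.19 for Rgs19. The cause was not tested. The replicate block cannot move a log2 fold change here, since each number has 1 sample of each group. The filter on dim probe sets and the other variance models cannot move one either, so the 229 include values that could not turn. Rgs4 on 1368505_at had a limma adjusted p of 0.0485 with the block, on replicate numbers that only the titles give for the GnRH samples.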
